A study of Mus musculus with 9 samples.

Results

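Fgf8, its relatives Fgf17, Fgf18 and Fgf15, and 6 genes that Fgf signaling is known to switch on (Spry1, Spry2, Spry4, Dusp6, Etv4 and Etv5) were followed by their symbols through midbrain RNA of 3 Gpr161 genotypes. All 10 genes were among the 14029 genes tested, out of 27360 rows. RNA was sequenced from midbrain tissue of 9 C57BL/6 fetuses at E13.5, with 3 fetuses per genotype. The floxed control was Gpr161 f/f without Cre, the Cre control was Gpr161 f/+;Wnt1-Cre, and the cKO was Gpr161 f/f;Wnt1-Cre. All 3 genotypes carried at least 1 floxed allele. Gpr161 codes for a ciliary receptor that restrains Sonic hedgehog (Shh) signaling. Wnt1-Cre recombines the dorsal midbrain neuroectoderm and the neural crest, so the tissue also held cells outside that lineage, which keep Gpr161. The Cre control differs from the floxed control by the Wnt1-Cre transgene and by recombination of its single floxed allele. It also has a wild-type allele in place of the other floxed allele. The effects of these differences cannot be told apart. The labels do not give litters, and the p-values measure the spread between these fetuses.

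Fgf8 is secreted by the isthmus, the organizer at the border of midbrain and hindbrain, and is known for patterning the tectum and cerebellum. Fgf17 and Fgf18 belong to its subfamily and are expressed around the same border, while Fgf15 is of another subfamily and is a known Shh target in the neural tube. Fgf receptors act through Ras and the kinase ERK, which switches on inhibitors of the same route, the Sprouty proteins and the ERK phosphatase Dusp6. The ETS transcription factors Etv4 and Etv5 are further readouts of the route and bind DNA around a GGAA core.

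The sequence ahead of 3 feedback genes is shown, and its relation to their values was not tested. Spry1 and Dusp6 were higher in each genotype than in the one before, and Spry2 was close to equal in the Cre control and the cKO. RefSeq windows (GRCm38.p6) were found for 5 of the 10 genes, Spry1, Spry2, Dusp6, Fgf18 and Etv5, the last with more than 1 start. The windows below are the 250 bases before the annotated start, 5′ to 3′ on the strand of the gene, at chr3:37639697-37639946 (plus strand) for Spry1, chr10:99262981-99263230 (plus strand) for Dusp6 and chr14:105896820-105897069 (minus strand) for Spry2. Capitals mark the letters GGAA, or TTCC where the core lies on the other strand.
Spry1: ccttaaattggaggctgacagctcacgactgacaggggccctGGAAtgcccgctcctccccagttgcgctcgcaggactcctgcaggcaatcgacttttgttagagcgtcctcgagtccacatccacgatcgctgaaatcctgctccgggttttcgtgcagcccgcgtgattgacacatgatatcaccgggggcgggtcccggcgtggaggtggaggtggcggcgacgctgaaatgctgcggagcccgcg
Dusp6: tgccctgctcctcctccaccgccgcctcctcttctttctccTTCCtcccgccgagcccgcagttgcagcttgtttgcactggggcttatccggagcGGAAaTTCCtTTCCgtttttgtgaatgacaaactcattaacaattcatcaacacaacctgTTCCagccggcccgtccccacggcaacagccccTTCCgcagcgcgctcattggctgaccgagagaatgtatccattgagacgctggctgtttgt
Spry2: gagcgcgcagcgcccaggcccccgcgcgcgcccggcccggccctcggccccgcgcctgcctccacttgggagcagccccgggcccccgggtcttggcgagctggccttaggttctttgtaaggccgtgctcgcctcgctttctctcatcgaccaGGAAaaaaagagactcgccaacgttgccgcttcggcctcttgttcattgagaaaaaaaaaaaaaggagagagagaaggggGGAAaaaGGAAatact
The core was matched 1 time in the Spry1 window, 6 times in that of Dusp6 and 3 times in that of Spry2, where 93.45% of the 32851 RefSeq windows of this length held it, with a median of 3 matches. On both strands, the letters CCGGAA, which contain the core, were in 12.03% of all windows, the Gli motif GACCACCCA in 0.2253% and the Tcf/Lef motif ATCAAAG in 3.205%, and none of these was in the 6 windows of the 5 genes.

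The labels were first checked against the genes they imply. Gpr161 was not lower in the libraries labelled cKO, at 11.74, 11.95 and 11.94 on the log2 scale against 11.80, 11.74 and 11.78 in the floxed control (difference 0.11, adjusted p = 0.223), and the table has 1 value per gene, which does not single out the deleted part. The Wnt1 log2 value was 1.75 higher in Cre control libraries than without Cre (adjusted p = 3.47e-06 by limma) and 1.46 higher in the cKO. Between the Cre genotypes, Wnt1 was called lower in the cKO than in the Cre control (-0.28, adjusted p = 0.0373 by limma). Ectopic Wnt1 is known for this Cre line. The Shh targets Gli1, Ptch1 and Hhip were called higher in the cKO than in either control, 3 of 3, and in the Cre control 0 of 3 passed against the floxed control. Of 6 genes of midbrain identity, Otx2, En1 and En2 were present and not called in any comparison, and 3 were called lower in the cKO against the floxed control, Pou4f1 (-0.60, adjusted p = 0.00148), Pax7 (-0.48, adjusted p = 0.00595) and Pax3 (-0.37, adjusted p = 0.0128). Pou4f1, a factor of tectal neurons, was also called lower against the Cre control (-0.61, adjusted p = 0.00896). The hindbrain gene Egr2 (2.10 to 2.17) lay below the lowest level tested, 4.73. Marker levels of other cells also moved with genotype, and their part in the results below was not tested. Against the floxed control, 19.5% of all genes tested were called higher in the cKO and 18.8% lower. There 7 of 8 mesenchyme genes, 7 of 9 erythroid genes, 5 of 8 progenitor genes and 4 of 8 endothelial genes were called higher. Called lower were 8 of 8 neuron genes and 2 of 4 neural crest genes. Against the Cre control, 4.86% of all genes were called higher in the cKO and 4.85% lower. Higher there were 0 of 8 mesenchyme, 4 of 9 erythroid, 3 of 8 progenitor and 0 of 8 endothelial genes. Lower there were 3 of 8 neuron and 0 of 4 neural crest genes. The summed linear level of the mesenchyme genes was 29068 to 53167 in floxed control libraries, 37111 to 61668 in those of the Cre control and 62933 to 65534 in those of the cKO, and that of the erythroid genes 152267 to 258939, 183384 to 211008 and 237944 to 459753. The mean log2 value of the Y-linked genes was 7.83 in floxed control replicate 2 and 8.06 in Cre control replicate 1, against 9.25 to 9.99 in the other 7 libraries. In tissue RNA, more cells of a type and more RNA per cell cannot be told apart.

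Values are given on a log2 scale for floxed control, Cre control and cKO in turn, each in the order of replicates 1 to 3, and a called gene had an adjusted p under 0.05 by limma over all genes tested. The difference of the Cre control from the floxed control is named the Cre step, and that of the cKO from the Cre control the cKO step. Against the floxed control, 9 of the 10 genes were called higher in the cKO, all but Etv5, and 0 lower, where 19.5% of all genes tested were called higher and 18.8% lower. With a fold change over 1.5 as a further limit, 5 of the 10 passed (Fgf8, Fgf17, Fgf15, Spry1 and Dusp6), where 1.34% of all genes did so upwards. In the Cre step, 1 of the 10 (Dusp6) was called higher, where 0.0499% of all genes were, and 8 of the 10 had an unadjusted p under 0.05 (2451 of all 14029 genes). In the cKO step, 7 of the 10 were called higher and 0 lower, all but Spry2, Etv4 and Etv5, where 4.86% of all genes were called higher and 4.85% lower, and 2 of the 10 (Fgf17 and Fgf15) also passed the fold limit, where 0.335% did. With the libraries centred on their medians, the calls over all genes in the cKO step were 532 higher and 831 lower in place of 682 and 681, and the same 7 of the 10 genes were called. The median log2 fold change of the 10 genes was 0.31 in the Cre step and 0.37 in the cKO step, and that of all genes tested was -0.0010 and 0.012.

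**Figure D1:**
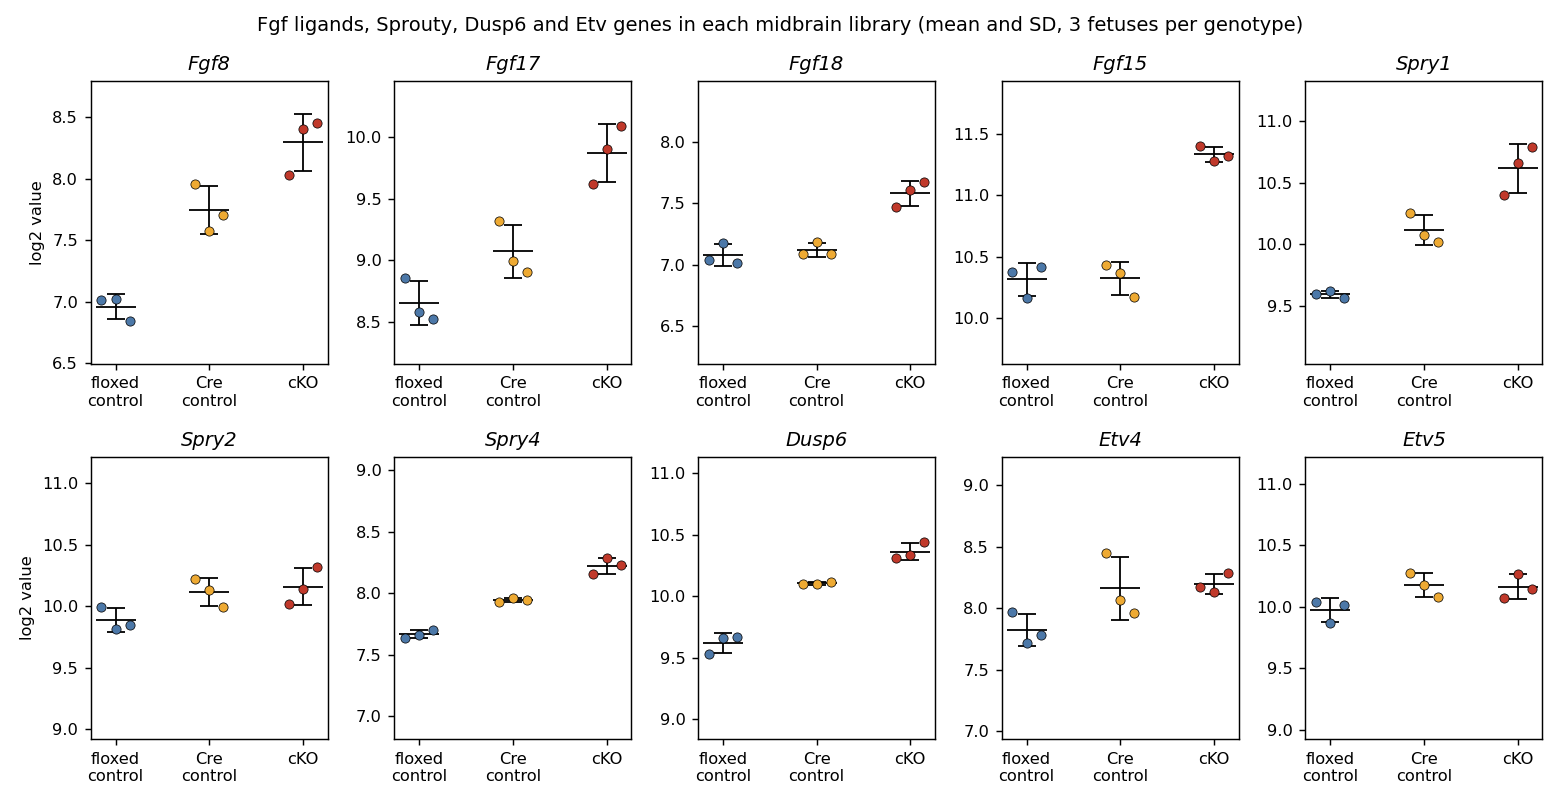
Log2 value of each of the 10 genes (vertical axis, the same span of values in every panel) in floxed control, Cre control and cKO midbrain (horizontal axis), where points are single libraries and bars the mean and SD of 3 fetuses. Fgf8, Fgf17, Spry1, Spry4 and Dusp6 climb without overlap over the 3 genotypes, Fgf15 and Fgf18 are apart in the cKO alone, and the Cre control and cKO overlap for Spry2, Etv4 and Etv5.

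Fgf8 (chromosome 19, 45736798 to 45742915, minus strand, GRCm38), the isthmic signal itself, was at 7.02, 7.02 and 6.84 in floxed control libraries, 7.95, 7.57 and 7.70 in those of the Cre control and 8.03, 8.40 and 8.45 in those of the cKO. The 3 genotypes were in ascending order with no overlap, and the lowest cKO library lay just above the highest Cre control library. The mean was 6.96 ± 0.103 in floxed control libraries, 7.74 ± 0.195 in those of the Cre control and 8.29 ± 0.231 in those of the cKO (SD, n = 3 each). Fgf8 rose 2.53-fold from floxed control to cKO, a log2 fold change of 1.34 (SE 0.125, adjusted p = 2.17e-04 by limma), the largest of the 10. The Cre step was 0.79 (95% interval 0.51 to 1.06) and was not called (adjusted p = 0.0755), though it held 58.8% of the whole difference, and the cKO step was 0.55 (95% interval 0.27 to 0.83, adjusted p = 0.0278). The Cre step was called without cKO replicate 1 (adjusted p = 0.0405) and with a Y-linked covariate (0.0483), with 0.0405 to 0.409 as the range of all alternatives. The cKO step was not called without Cre control replicate 2 (0.0767) or 3 (0.0922), without cKO replicate 2 (0.0836) or 3 (0.0732), or with the floxed control out of the fit (0.0641), and all alternatives spanned 0.00721 to 0.0922.

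Fgf17 (chromosome 14, 70636203 to 70642268, minus strand), which overlaps Fgf8 at the isthmus, was at 8.86, 8.58 and 8.52 in floxed control libraries, 9.32, 8.996 and 8.91 in those of the Cre control and 9.62, 9.90 and 10.10 in those of the cKO. The order was again ascending without overlap, but floxed control replicate 1 and Cre control replicate 3 were only slightly apart. Its level was 2.33-fold higher in the cKO than in the floxed control (log2 fold change 1.22, SE 0.140, adjusted p = 4.71e-04). Of this, 34.5% lay in the Cre step (0.42, adjusted p = 0.20) and the rest in the cKO step (0.80, adjusted p = 0.0135; 0.0521 without Cre control replicate 3, with all alternatives between 0.00365 and 0.0521).

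Fgf18 (chromosome 11, 33117430 to 33147400, minus strand), the other member of the Fgf8 subfamily, was at 7.04, 7.18 and 7.02, then 7.09, 7.19 and 7.09, and in the cKO at 7.47, 7.60 and 7.67. Both controls covered the same range, and every cKO library was above it. Fgf18 was 1.42-fold higher in the cKO than in the floxed control (log2 fold change 0.50, adjusted p = 8.89e-04), with 0.04 in the Cre step (95% interval -0.11 to 0.20) and 0.46 in the cKO step (adjusted p = 0.00789).

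Fgf15 (chromosome 7, 144896531 to 144900953, plus strand), the ligand outside the Fgf8 subfamily, was at 10.37, 10.16 and 10.41 in the floxed control and 10.43, 10.37 and 10.18 in the Cre control. In the cKO it was at 11.40, 11.28 and 11.32. The controls overlapped fully, and the cKO libraries stood together well above them. The mean was 10.32 ± 0.136 in floxed control libraries, 10.33 ± 0.135 in those of the Cre control and 11.33 ± 0.0596 in those of the cKO (SD, n = 3 each). The Cre step was 0.01 (95% interval -0.17 to 0.19, adjusted p = 0.953) and the cKO step 1.01 (95% interval 0.83 to 1.18, adjusted p = 4.52e-04), so that 1.07% of the 2.02-fold difference from floxed control to cKO lay in the Cre step. The cKO step was called in every fit that left out 1 library, with an adjusted p of at most 0.00426. Its profile lay close to that of the Shh target Gli1, which was at 8.55, 8.71 and 8.59, then 8.66, 8.60 and 8.69, and in the cKO at 9.80, 9.60 and 9.69.

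Levels of the ligands can be set beside each other only per length of transcript, here as the linear value of the group mean per kilobase of the median coding transcript. On that scale Fgf15 was at 1059 in the floxed control, Fgf17 at 266.0, Fgf8 at 130.9 and Fgf18 at 130.2. In the cKO the order was the same, with Fgf15 at 2142, Fgf17 at 619.5, Fgf8 at 330.6 and Fgf18 at 184.7. Fgf8 and Fgf18 were at almost equal levels in the floxed control and apart in the Cre control, at 225.6 and 134.0. Which of these is higher in the floxed control depends on the isoform used, since the annotated coding transcripts run from 630 to 1168 bases for Fgf8 and from 991 to 1086 for Fgf18.

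Spry1 (chromosome 3, 37639947 to 37644598, plus strand), an inhibitor that acts between Fgf receptors and ERK, had the largest difference of the 6 feedback and target genes. It was at 9.59, 9.62 and 9.56 in floxed control libraries, 10.25, 10.07 and 10.02 in those of the Cre control and 10.40, 10.66 and 10.79 in those of the cKO. The genotypes did not overlap, and the 3 floxed control libraries were nearly equal. The mean was 9.59 ± 0.0292, 10.11 ± 0.122 and 10.62 ± 0.199 (SD, n = 3 each), a 2.03-fold difference from floxed control to cKO (log2 fold change 1.02, SE 0.0924, adjusted p = 1.90e-04). Its Cre step was 0.52 (adjusted p = 0.113) and its cKO step 0.50 (adjusted p = 0.0152), so the whole difference was split almost evenly. Without cKO replicate 1 the Cre step was called (adjusted p = 0.0405, with 0.0405 to 0.409 as the range of all alternatives), and without Cre control replicate 3 the cKO step was not (0.0586, in 0.00484 to 0.0586).

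Spry4 (chromosome 18), a further Sprouty inhibitor, was at 7.63, 7.66 and 7.70, then 7.93, 7.96 and 7.95, and in the cKO at 8.15, 8.28 and 8.23. The spread within each genotype was small beside the distances between them, and nothing overlapped. It was 1.47-fold higher in the cKO than in the floxed control (log2 fold change 0.56, adjusted p = 2.21e-04), with equal steps of 0.28 and 0.28. Of these, the Cre step was not called (adjusted p = 0.127) and the cKO step was (adjusted p = 0.0161), though not without Cre control replicate 3 (0.0577) or cKO replicate 2 (0.0554), and all alternatives lay between 0.0113 and 0.0577.

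Spry2 (chromosome 14, 105891947 to 105896819, minus strand) was at 9.996, 9.82 and 9.85, then 10.22, 10.13 and 9.99, and in the cKO at 10.02, 10.14 and 10.32. The Cre control and the cKO covered nearly the same range, and Cre control replicate 3 lay below floxed control replicate 1. The 1.21-fold difference between cKO and floxed control (log2 fold change 0.27) had an adjusted p of 0.0292, which became 0.0874 or 0.0904 when floxed control replicate 2 or 3 was left out and 0.0631 or 0.102 when cKO replicate 2 or 3 was (all alternatives 0.0199 to 0.102). Its Cre step was 0.23 (adjusted p = 0.23) and the cKO step 0.04, with a 95% interval of -0.15 to 0.23.

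Dusp6 (chromosome 10, 99263231 to 99267489, plus strand), the phosphatase that inactivates ERK, was at 9.53, 9.66 and 9.67 in floxed control libraries, 10.10, 10.10 and 10.11 in those of the Cre control and 10.31, 10.34 and 10.44 in those of the cKO. The 3 Cre control libraries were almost identical and lay between the others without overlap. It was the one gene of the 10 called in the Cre step, which was 0.48 (SE 0.0528, 95% interval 0.37 to 0.60, adjusted p = 0.0152) and ranked 3 among all genes by p. The cKO step was 0.26 (95% interval 0.14 to 0.38, adjusted p = 0.0206), and the whole difference was 1.67-fold (log2 fold change 0.74, adjusted p = 1.21e-04), with 65.2% of it in the Cre step. The call in the Cre step was lost when replicate 3 of the floxed control (0.0687) or of the Cre control (0.0575) was left out and with the cKO libraries out of the fit (0.0697), with 0.0103 to 0.0697 as the range of all alternatives. The call in the cKO step was lost without Cre control replicate 2 (0.0543) or 3 (0.0681) and without cKO replicate 1 (0.0511), 2 (0.0512) or 3 (0.0522), with all alternatives between 0.0151 and 0.0681.

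Etv4 (chromosome 11, 101769742 to 101785371, minus strand) was at 7.97, 7.71 and 7.78 in floxed control libraries, 8.45, 8.07 and 7.96 in those of the Cre control and 8.17, 8.13 and 8.29 in those of the cKO. Cre control replicate 1 was the highest of the 9 libraries, and replicate 3 was level with the highest floxed control. The log2 fold change of cKO against floxed control was 0.38 (adjusted p = 0.0292), which was not called without floxed control replicate 2 (0.0884) or 3 (0.0853) or without cKO replicate 1 (0.0672), 2 (0.0513) or 3 (0.0929), with all alternatives between 0.00345 and 0.0929. The Cre step was 0.34 (adjusted p = 0.209) and the cKO step 0.04 (95% interval -0.23 to 0.30).

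Etv5 (chromosome 16, 22381309 to 22439719, minus strand) was at 10.04, 9.86 and 10.01, then 10.28, 10.18 and 10.08, and in the cKO at 10.07, 10.27 and 10.15. Both Cre genotypes lay above the floxed control by a narrow margin and overlapped each other. Its log2 fold change of 0.19 in the cKO against the floxed control did not pass (adjusted p = 0.0574; 0.0361 without Cre control replicate 1, 0.0497 without cKO replicate 1, 0.0452 with the Cre control out of the fit, all alternatives 0.0361 to 0.194). The cKO step was -0.02 (95% interval -0.17 to 0.14), so differences above 0.14 on the log2 scale lie outside the interval. The third factor of this group, Etv1, was not called in any comparison.

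The whole difference of each gene was divided between the steps. The share of the whole difference in the Cre step was 1.07% for Fgf15, 8.21% for Fgf18, 34.5% for Fgf17, 49.7% for Spry4, 50.9% for Spry1, 58.8% for Fgf8, 65.2% for Dusp6, 84.2% for Spry2, 90.1% for Etv4 and 108% for Etv5. With 1 library left out, the share of Etv4 ran from 51.7% (without Cre control replicate 1) to 116% (without Cre control replicate 3), that of Fgf18 from 1.76% (without Cre control replicate 2) to 16.4% (without floxed control replicate 2) and that of Fgf15 from -7.08% to 8.51%, while that of Dusp6 stayed between 62.9% and 68.9%. Both steps share the Cre control libraries, so these shares are a description, and whether the steps differed was tested by the contrast of the cKO step minus the Cre step. Of the 10 genes, 1 passed this test, Fgf15, with a difference of 0.995 (95% interval 0.69 to 1.30, adjusted p = 0.0491), where 0.0428% of all genes were called in this direction. That call was lost under 12 of 17 alternatives, which were no filter on low values (0.0557), no trend (0.0694), median centring (0.0562), quantile normalization (0.0625), the Y-linked covariate (0.0958) and leaving out each of 7 libraries in turn. These were replicates 1 (0.106) and 3 (0.158) of the floxed control, 2 (0.101) and 3 (0.213) of the Cre control and 1 (0.141), 2 (0.139) and 3 (0.139) of the cKO. The range of all alternatives was 0.0309 to 0.213, while the difference itself stayed between 0.84 and 1.101. For Fgf18 the difference was 0.42 (95% interval 0.15 to 0.69, adjusted p = 0.53) and for Dusp6 it was -0.23 (95% interval -0.43 to -0.02, adjusted p = 0.744), and neither passed. For Fgf8 it was -0.23 (95% interval -0.71 to 0.25), for Fgf17 0.38 (95% interval -0.16 to 0.92), for Spry1 -0.02 (95% interval -0.38 to 0.34) and for Spry4 0.00 (95% interval -0.20 to 0.21), so a larger change in either step could not be told for these genes. Among the Shh targets, the same difference was 1.02 for Gli1 (adjusted p = 0.0150), 1.23 for Hhip (0.0150) and 0.83 for Ptch1 (0.0390).

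**Figure D2:**
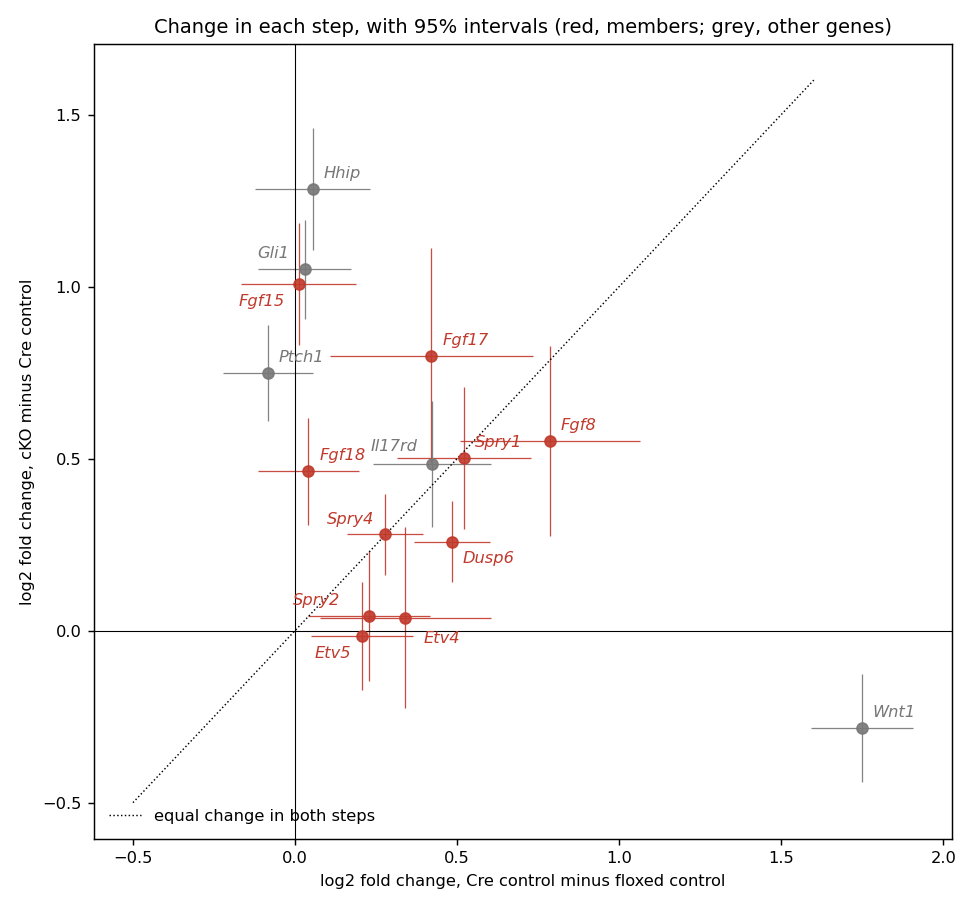
Log2 fold change of the Cre control over the floxed control (horizontal axis) against that of the cKO over the Cre control (vertical axis), with 95% intervals, where red points are the 10 genes, grey points other genes and the dotted line equal change in both. Fgf15 lies at 0.01 and 1.01, near Gli1, Hhip and Ptch1, Spry1 and Spry4 lie near the dotted line, Etv4, Etv5 and Spry2 lie near 0 on the vertical axis, and Wnt1 lies at 1.75 and -0.28.

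The ranges of the libraries were also compared. Every Cre control library was above every floxed control library for 6 of the 10 genes (Fgf8, Fgf17, Spry1, Spry4, Dusp6 and Etv5), where 10.7% of all genes tested were. Every cKO library was above every floxed control library for 10 of the 10, against 29.9% of all genes, and above every Cre control library for 7, against 17.8%. For 5 genes (Fgf8, Fgf17, Spry1, Spry4 and Dusp6) all 3 genotypes ascended without overlap, against 4.38% of all genes.

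Within the Cre control, replicate 1 had the highest value for 7 of the 10 genes and replicate 3 the lowest for 7, where replicate 1 was highest for 36.7% of all genes and replicate 3 lowest for 24.4%. Within the cKO, replicate 1 was lowest for 8 of the 10 and replicate 3 highest for 7, against 39.9% and 35.2% of all genes. The genes not lowest in cKO replicate 1 were Fgf15, which was highest there, and Etv4, which was lowest in cKO replicate 2. The mean log2 value of the 10 genes above their floxed control mean was 0.45, 0.31 and 0.24 in Cre control replicates 1 to 3 and 0.61, 0.75 and 0.82 in those of the cKO. That of the mesenchyme genes was 0.10, 0.65 and 0.43 and then 0.69, 0.67 and 0.65. In floxed control replicates 1 to 3 the mesenchyme genes were at -0.03, 0.43 and -0.40, and the 10 genes at 0.05, -0.03 and -0.02. The erythroid genes were at -0.34, 0.40 and -0.06 in floxed control replicates 1 to 3. They were at 0.12, 0.01 and -0.05 in those of the Cre control and at 1.01, 0.26 and 1.13 in those of the cKO. The progenitor genes were at 0.17 to 0.20 in the cKO and at -0.05 to 0.05 in the Cre control. The neuron genes were at -0.37, -0.16 and -0.09 in Cre control replicates 1 to 3, so they were lowest in the library where the 10 genes were highest, and at -0.54, -0.37 and -0.37 in those of the cKO, lowest where the 10 genes were lowest. Cre control replicate 1 was also the one with low Y-linked genes among these 6 libraries. With the Y-linked covariate in the fit, 2 of the 10 genes were called in the Cre step, 9 in the cKO against the floxed control and 7 in the cKO step. The calls over all genes were not counted for that fit. The forebrain markers were at -0.16, 0.12 and 0.54 in Cre control replicates 1 to 3 and at 0.0045 to 0.064 in the cKO. Of these, Dlx1 was at 5.33, 6.69 and 7.75 in the Cre control. It was at most 5.71 in the floxed control and 5.76 in the cKO. Six3 (9.62) and Eomes (6.15) in Cre control replicate 3 were level with or below their floxed control means of 9.62 and 6.26. The hindbrain markers were at -0.18, -0.03 and 0.21 in floxed control replicates 1 to 3. They were at -0.38, -0.17 and -0.39 in those of the Cre control and at -0.26, -0.29 and -0.32 in those of the cKO. The part of the mesenchyme, erythroid, progenitor, neuron, forebrain and hindbrain genes in the values of the 10 genes was not tested.

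**Figure D3:**
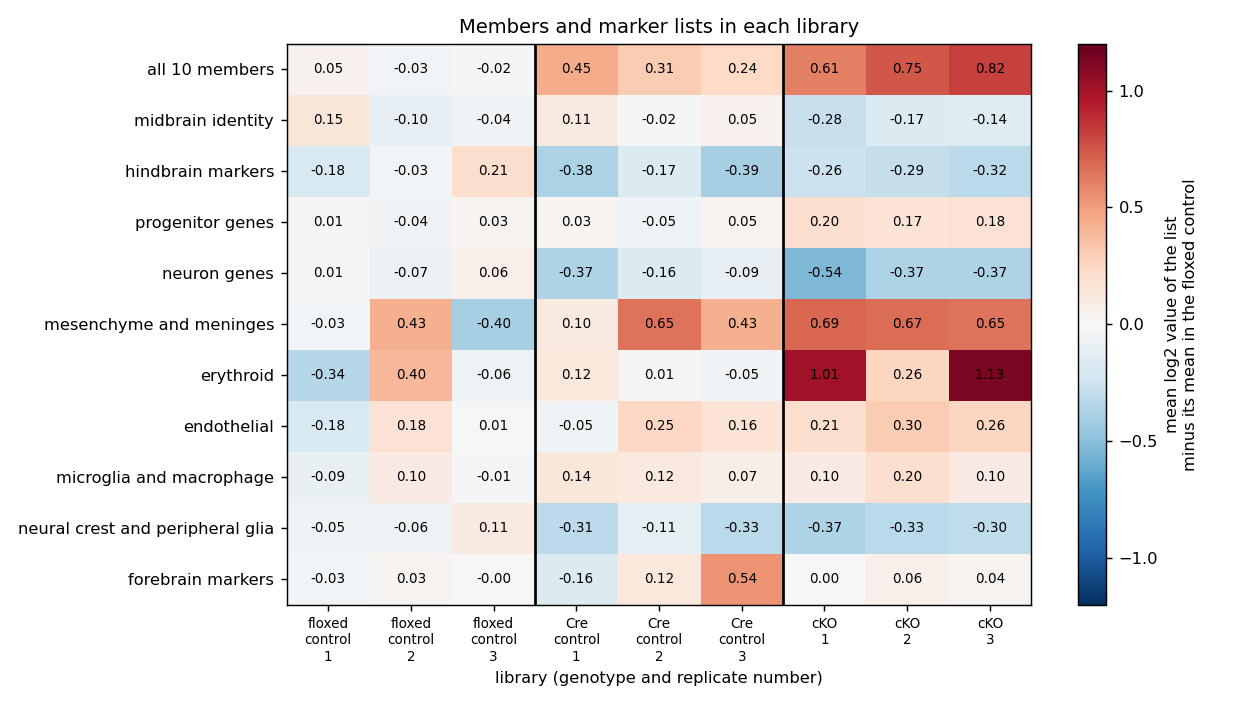
Mean log2 value of the 10 genes and of each marker list (rows) minus its mean in the floxed control, in each of the 9 libraries (columns), with the value written in each cell and the colour scale in log2 units. The top row is between 0.24 and 0.45 in the Cre control and between 0.61 and 0.82 in the cKO, and the mesenchyme row is between 0.10 and 0.65 in the Cre control and between 0.65 and 0.69 in the cKO.

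Most receptor genes were not called. Of 6 receptor and co-receptor genes tested, 2 were called higher and 0 lower in cKO against floxed control, where 19.5% and 18.8% of all genes were. In the cKO step 1 was called higher and 0 lower, where 4.86% and 4.85% of all genes were. Fgfr3, expressed in ventricular progenitors, was at 11.40, 11.40 and 11.51, then 11.30, 11.37 and 11.51, and in the cKO at 11.75, 11.65 and 11.64. Its cKO libraries lay above all others, 0.24 above the floxed control on the log2 scale (adjusted p = 0.0101) and 0.29 in the cKO step (adjusted p = 0.0215). Fgfrl1, a receptor without a kinase domain, was called higher in the cKO than in the floxed control (0.22, adjusted p = 0.0330). Fgfr1, Fgfr2 and Fgfr4 were not called in any comparison, with log2 fold changes of 0.02, 0.07 and -0.04 in the cKO against the floxed control.

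Among the 15 other feedback and target genes of the route, 6 were called higher and 2 lower in the cKO against the floxed control (19.5% and 18.8% of all genes), with a median log2 fold change of 0.13. In the Cre step 0 were called, and 7 had an unadjusted p under 0.05 (2451 of all 14029 genes). In the cKO step 2 were called higher and 0 lower (4.86% and 4.85% of all genes). Il17rd (Sef), an inhibitor that sits with Fgf receptors at the membrane, was at 10.91, 10.69 and 10.70, then 11.31, 11.12 and 11.13, and in the cKO at 11.53, 11.77 and 11.73. Its 3 genotypes did not overlap, and its steps of 0.42 (adjusted p = 0.129) and 0.48 (adjusted p = 0.0121) were near those of Spry1. Dusp9, another ERK phosphatase, was 0.47 higher in the cKO than in the floxed control (adjusted p = 8.89e-04) and 0.29 higher than in the Cre control (adjusted p = 0.0278). Flrt1 (0.36) and Flrt3 (0.29), membrane proteins that bind Fgf receptors, and the Ras inhibitors Spred1 (0.16) and Spred2 (0.24) were called higher against the floxed control, and Spry3 (-0.35) and Dusp4 (-0.27) lower.

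Other Fgf ligands were lower in the cKO where they were called. Of 18 listed, 8 were tested, and against the floxed control 5 were called lower in the cKO (Fgf3, Fgf9, Fgf11, Fgf12 and Fgf13; 18.8% of all genes were) and 0 higher, with a median log2 fold change of -0.33. Fgf3, a secreted ligand of early hindbrain and ear, was at 7.995, 7.59 and 8.02, then 8.12, 7.97 and 7.02, and in the cKO at 7.13, 7.03 and 7.15. Cre control replicate 3 was thus as low as the cKO, and the cKO difference of -0.77 from the floxed control had an adjusted p of 0.0295. Fgf13, one of the intracellular Fgf homologs of neurons, as are Fgf11 and Fgf12, was 0.65 lower (log2 fold change -0.65, adjusted p = 0.00122) and was also called in the cKO step (-0.38, adjusted p = 0.0399). The neuron genes were lower in the same libraries, as given above, and their part in this was not tested. Of the 18 genes that carry the signal from receptor to ERK, 3 were called higher and 3 lower in the cKO against the floxed control, near the 19.5% and 18.8% of all genes, with a median of -0.02, and 0 were called in the Cre step.

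**Figure D4:**
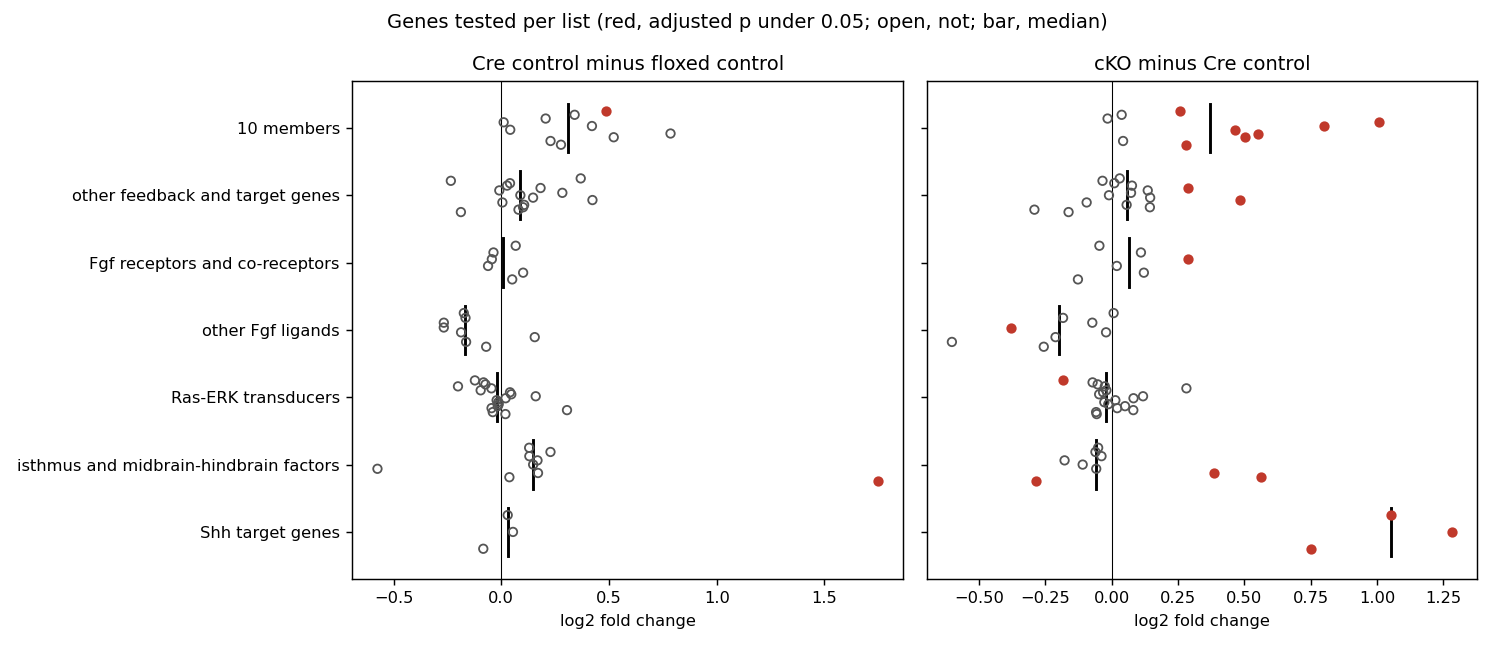
Log2 fold change (horizontal axes) of the genes tested in each list (rows) in the Cre control over the floxed control (left) and in the cKO over the Cre control (right), where filled red points have an adjusted p under 0.05, open points do not and bars are medians. The bar of the 10 genes is at 0.31 on the left and 0.37 on the right, that of the Shh target genes at 0.03 and 1.05, and that of the other Fgf ligands at -0.17 and -0.20.

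Of the factors that mark the isthmus and its surroundings, Pax5 and Pax8 were called higher in the cKO than in the floxed control, by 0.56 (adjusted p = 0.00311) and 0.60 (adjusted p = 0.00375), and in the cKO step by 0.39 (adjusted p = 0.0473) and 0.56 (adjusted p = 0.0223). Pax2 was lower, at 7.62, 7.48 and 8.14, then 7.16, 7.45 and 6.92, and in the cKO at 7.06, 7.08 and 7.21 (difference of the cKO from the floxed control -0.63, adjusted p = 0.0146). En1, En2, Gbx2, Lmx1b and Otx2 were not called in any comparison. The summed linear level of the hindbrain markers was 1024 to 1408 in floxed control libraries. It was 851.1 to 1067 in those of the Cre control and 949.4 to 997.8 in those of the cKO. The ranges of the Cre control and the cKO overlapped, and both began below that of the floxed control. Of 8 tested, 4 were called lower and 1 higher in the cKO against the floxed control (18.8% and 19.5% of all genes). The 4 were Hoxa2, Hoxb2, Hoxb3 and Atoh1, with Cre steps of -0.87, -0.96, -0.91 and -0.42, which were not called. Of the 8 genes, 3 were above 0 in the Cre step. In the cKO step 0 of the 8 were called, and they lay between -0.04 and 0.15.

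Likeness of profile was measured as the root mean square difference of log2 values over the 9 libraries, with each gene centred on its mean. The genes were not scaled, so genes with small changes lie near each other whatever their course. Among genes outside the 10, the nearest to Fgf8 were Mgarp (0.125), Tecta (0.154), Pdlim3 (0.205), Il17rd (0.209) and Hes3 (0.228), and the nearest to Fgf15 were Pappa (0.112), Gli1 (0.131), Hmga2 (0.145), Trh (0.150) and Fam181b (0.150). Mgarp, the closest to Fgf8, had means of 8.09, 8.97 and 9.54 in floxed control, Cre control and cKO, and Pappa, the closest to Fgf15, had means of 8.26, 8.45 and 9.36. Among the 10 genes themselves, the nearest pair was Spry2 and Etv5 (0.0875), followed by Spry2 and Etv4 (0.103) and by Spry4 and Dusp6 (0.104), while Fgf8 was nearest to Spry1 (0.154). Fgf18 and Spry4 were the next pair (0.118), though their shares in the Cre step were 8.21% and 49.7%. Fgf8 was farther from Fgf15 (0.371) and Fgf18 (0.397) than from Fgf17 (0.178), and was farthest from Etv5 (0.486). The nearest genes were picked by their values in these libraries.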

How the data were processed

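RNA-Seq was carried out by the authors on poly-A selected midbrain RNA (NEBNext Ultra) of 9 fetuses, 3 per genotype. The submitters' processing notes name FastQC 0.10.1, kallisto 0.46.1, DESeq2 and the mm10 build. The authors deposited 1 table of log2 values, already normalized between libraries. The transformation is not given in the sources used here. The log2 unit was read from the values, and the spread shrinks at low levels (median SD 0.00370 for rows with a mean under 0, 0.122 between 6 and 8), which compresses changes of weak genes. The table holds no read counts, so depth is unknown and no counting interval could be given.

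Named rows were kept if their linear values reached 1 cpm in 3 or more libraries (14029 genes). A mean per genotype was estimated from the 9 libraries together, using limma 3.58.1 in R 4.3.3 (eBayes with a trend). Its moderated tests were two-sided, and p was adjusted after Benjamini and Hochberg over all genes tested. A gene was called at an adjusted p under 0.05. An exact permutation test of 3 against 3 cannot go below 0.10 and was not used. The fit was tested on simulated data. Replicate numbers were not used as pairs in the main fit, and a replicate block was run as an alternative. With the mean of each genotype subtracted, correlations between libraries sharing a number had a median of 0.10 (-0.027 to 0.26, 9 pairs). Between libraries of different numbers the median was -0.053 (-0.28 to 0.16, 18 pairs). The median was thus higher for shared numbers, but the ranges overlapped, and these values do not settle whether the numbers mark pairs.

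The 10 genes and the lists were chosen with earlier results of these data known. Genes named are the 10, Gpr161, Wnt1, the Shh targets, the receptors, up to 6 called genes per list, markers that moved, and the 5 nearest profiles. Alternatives were the filter, the libraries in the fit, the replicate block, the fold limit, the trend, 2 scalings, a Y-linked covariate and each library left out. Positions are from GENCODE on GRCm38. The lists leave out 2 genes, which are not reported here.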

Additional observations from a re-analysis of the deposited data

How the results depend on the processing

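Of 710 comparisons of single genes under the alternatives, 639 kept their direction and their side of the threshold. A further 48 no longer passed, 6 became called and 17 changed direction. The fold limit was set on the main fit, so genes that failed it kept their adjusted p and are counted in the 48. In the Cre step, the number of the 10 genes called was 0 with only the compared genotypes in the fit, 0 with the fold limit and 2 (Fgf8 and Dusp6) with the Y-linked covariate. With the fold limit it was 5 for cKO against floxed control and 2 in the cKO step. For the difference of the steps it was 0 with no filter on low values, without a trend, with median centring, with quantile normalization and with the Y-linked covariate. With 1 library left out, the counts ran from 0 to 3 in the Cre step, 7 to 10 for cKO against floxed control, 2 to 7 in the cKO step and 0 to 1 for the difference of the steps. The low of 2 was without Cre control replicate 3 (Fgf18 and Fgf15), and the cKO step had 4 without cKO replicate 2. Cre control replicate 3 also had the highest mean of the forebrain markers. The difference of the steps needs all 3 genotypes and was not run on fewer. Calls over all genes were counted only for the main fit, the fold limit and the 2 scalings, so the other counts have no share of all genes beside them. The causes of these changes were not tested.

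With median centring, the difference of the steps of Spry4 was -0.0014. Other changes of direction came from leaving out 1 library, all in values near 0 that were not called. These were the Cre step of Fgf15 (-0.066 to 0.087), the cKO steps of Spry2 (-0.036 to 0.11), Etv4 (-0.062 to 0.18) and Etv5 (-0.069 to 0.034), and the differences of the steps of Spry1 (-0.11 to 0.12) and Spry4 (-0.027 to 0.038). With the replicate block, 1, 9 and 7 of the 10 genes were called in the Cre step, for cKO against floxed control and in the cKO step, and Fgf15 had a difference of the steps of 0.995 (adjusted p = 0.0488). The numbers do not establish a pairing. The lack of counts limits what can be said of weakly expressed genes.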
